A study of Mus musculus with 26 samples.

Results

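An RNA immunoprecipitation also recovers mRNAs that the antibody's target does not hold, and the study made a pair of controls for this in mouse brown fat. One was an immunoprecipitate (IP) made with the IMP2 antibody from Imp2-/- mice, which lack the target. The other was an IP made with nonspecific IgG from wild-type mice. The recovery of each mRNA in these controls, relative to total RNA, was compared gene by gene over the 1185 genes listed in both deposited count tables, of 9344 genes in either table. The other 8159 genes are listed in the IgG table alone. No measured value was used to choose the genes, other than the unstated rule by which the authors listed transcripts in each table.

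The knockout side used samples 23 and 24 (Imp2-/-, IMP2 antibody IP) and samples 18 and 19 (Imp2-/-, total RNA), which are in the first table together with wild-type IMP2 IPs (samples 21 and 22) and wild-type total RNA (samples 16 and 17). The IgG side used sample 26 (wild type, IgG IP) and samples 15 and 20 (wild type, total RNA), which are in the second table together with a wild-type IMP2 IP (sample 25). All 12 brown fat libraries came from male mice of 10 weeks on a C57Bl/6J background, on normal chow and kept at 4 °C overnight. Imp2-/- and wild-type animals were bred from heterozygous parents, and the labels do not say how many animals made a library. The 14 liver samples of the series were not used here. The knockout ratio below is the log2 ratio of knockout IP over knockout total RNA, and the IgG ratio is that of IgG IP over wild-type total RNA. The controls thus differ in genotype, antibody and table at once, and these cannot be told apart.

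IMP2, the product of Igf2bp2, belongs to a family of proteins that bind mRNA and control where and how well it is translated and how long it lasts. In an IP with its antibody, RNA from a knockout comes from binding to the beads, the tube or proteins other than IMP2, while an IgG IP measures the beads and the constant part of an antibody but not its other targets. Brown fat burns fuel in its many mitochondria and releases the energy as heat through the uncoupling protein Ucp1, and a large part of its mRNA encodes mitochondrial proteins.

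The summed counts over the 1185 genes were 1874898 to 2366578 in the knockout IPs, 2476532 to 4886418 in knockout total RNA, 2045515 in the IgG IP and 842283 to 1629104 in the wild-type total RNA set against it. The median gene had 616 to 779 counts in the knockout IPs and 649 in the IgG IP. Igf2bp2 is listed in the IgG table alone, with 16 counts in the IgG IP (95% exact Poisson interval 9.15 to 26.0, counting error only), 8 in the wild-type IMP2 IP and 16 and 20 in wild-type total RNA, so the knockout label could not be checked on its own gene. Of 8 brown fat markers, 6 are in both tables, among them Ucp1, Cidea, Cox8b, Cox7a1 and Fabp4 at 716 CPM or more in each of the 12 libraries (normalised read counts, scaled to a common library size with the trimmed mean of M-values over the 1185 genes). Elovl3 and Adipoq are in the IgG table alone. None of 22 leukocyte markers is in both tables, and 1 of 18 endothelial and mural markers is. The 9 listed skeletal muscle markers summed to 840 and 1866 CPM in the knockout IPs, 1023 and 2879 CPM in knockout total RNA, 10932 CPM in the IgG IP and 27696 and 15823 CPM in its total RNA. In such bulk tissue, fewer cells of a type and less RNA per cell cannot be told apart.

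The 2 backgrounds leaned the same way for most mRNAs. Against their own total RNA, 115 genes were higher (9.7% of 1185) and 116 lower (9.79%) in the knockout IPs, and 91 were higher (7.68%) and 116 lower (9.79%) in the IgG IP, at an adjusted p under 0.05 in the quasi-likelihood test of edgeR. The share of higher calls depends on the scaling, with 198 higher and 93 lower in the knockout ratio and 161 higher and 77 lower in the IgG ratio under upper-quartile scaling, and 167 and 96, and 160 and 84, with library size alone. The median of all genes was 0.16 and 0.13 in the 2 ratios under upper-quartile scaling, against 0.05 and −0.02 here. Single libraries weighed on these counts, which for the knockout ratio came to 9 higher and 30 lower without total RNA 18 and 22 higher and 29 lower without IP 24. The IgG arm is 1 library, and its calls came to 4 higher and 32 lower when the ratio was fitted in its own table, and to 41 higher and 27 lower with the 7 libraries of the ratios alone. Of the higher genes, 45 were called in both, which is 39.1% of the knockout calls and 49.5% of the IgG calls. Of the lower genes, 65 were called in both, or 56.0% of either list. No gene was called in opposite directions. Of the 115 genes called higher in the knockout ratio, 7 had an IgG ratio below 0, and of the 116 called lower, 6 had one above 0. Over all genes, 447 were above 0 in both ratios, 416 were below 0 in both, 199 were above 0 in the knockout ratio alone and 123 in the IgG ratio alone.

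Across the 1185 genes the knockout ratio and the IgG ratio, which share no library, had a Pearson r of 0.703 and a Spearman rho of 0.673. Genes are not independent replicates, and no p is given. Between single library pairs, r was 0.444 to 0.717 for the 8 pairings of a knockout ratio with an IgG ratio. Within the knockout side it was 0.915 between the ratio of samples 23 over 18 and that of 24 over 19, and 0.416 between 23 over 19 and 24 over 18. All 8 values across the backgrounds were below 0.915 and above 0.416, and the labels do not say which IP and total RNA library belong together. The muscle sums were 840 and 1023 CPM in samples 23 and 18, and 1866 and 2879 CPM in samples 24 and 19. If those samples are matched, 0.416 comes from crossed pairs and does not measure how well replicates agree. Leaving out 1 knockout library would then also break a pair. The knockout ratio had a Spearman rho of 0.730 with the ratio of the wild-type IMP2 IP of the second table. The ratios ranged over −2.17 to 1.77 for the knockout and −2.39 to 2.06 for IgG, with SDs over genes of 0.50 and 0.58 and median standard errors of 0.19 and 0.23.

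**Figure D1:**
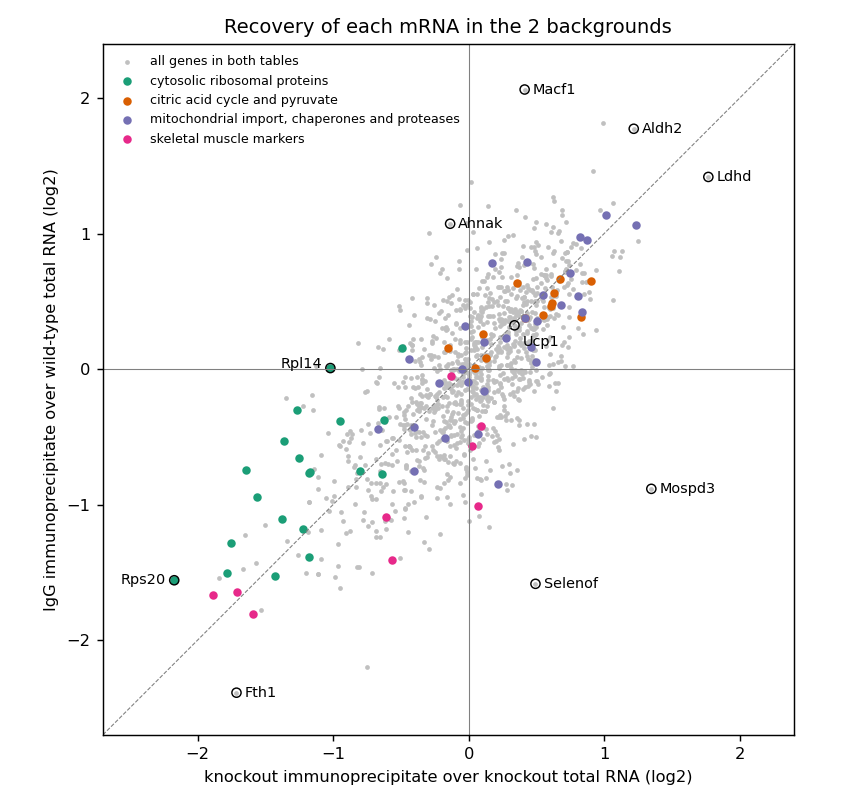
Each point is a gene in both tables, with its knockout IP over knockout total RNA on the x axis and its IgG IP over wild-type total RNA on the y axis, both as log2 ratios; the dashed line marks equal ratios and open circles mark named genes. Most genes lie along the dashed line, cytosolic ribosomal protein mRNAs at the lower left and citric acid cycle mRNAs at the upper right, while Mospd3 and Selenof lie below it and Macf1 above it.

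The listing may have kept genes low in total RNA only where their IP counts were high. Its part in the genes high in both was not tested. Genes high in both were ordered by the smaller of their ratios, and the first was Ldhd, the mitochondrial dehydrogenase of D-lactate (8:111625611-111630336 in GRCm38, the mm10 assembly). It had 450 and 392 CPM in the knockout IPs, against 125 and 122 CPM in knockout total RNA, and 310 CPM in the IgG IP, against 99.04 and 130 CPM in wild-type total RNA. Every IP library stood above every total RNA library. Its log2 ratios were 1.77 ± 0.16 (SE, n = 2 and 2 libraries; edgeR adjusted p = 0.000324) in the knockout and 1.42 ± 0.20 (SE, n = 1 and 2; adjusted p = 0.00647) with IgG. In that group follows Aldh2, the mitochondrial enzyme that clears acetaldehyde (5:121566027-121593824), with 504 and 521 CPM in the knockout IPs, against 212 and 228 CPM in knockout total RNA, and 540 CPM in the IgG IP, against 113 and 198 CPM in wild-type total RNA. Here too both kinds of IP lay above all of their total RNA libraries, by 1.22 ± 0.21 and 1.77 ± 0.25 on the log2 scale (SE).

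Of the other 8 genes highest in both, 4 act in mitochondria by well known roles. Mipep, the peptidase that trims imported proteins, was higher by 1.24 in the knockout ratio and 1.06 in the IgG ratio. Trap1, the mitochondrial member of the Hsp90 chaperones, was higher by 1.01 and 1.14 (log2, knockout and then IgG ratio). Immt, the scaffold of the cristae junctions, was higher by 0.88 and 0.95. Peo1, the helicase that unwinds mitochondrial DNA, was higher by 0.83 and 0.90, and this call was near the threshold (adjusted p = 0.028 and 0.049). The remaining genes were the diacylglycerol kinase Dgkd at 0.99 and 1.82, the ubiquitin ligase Znrf1 at 0.91 and 1.47, the securin Pttg1 at 1.13 and 0.87, and Isoc2a at 1.06 and 0.84.

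At the other end stood Fth1, the heavy chain of ferritin, which stores iron (19:9980600-9985111). It had 2508 and 2986 CPM in the knockout IPs, against 7193 and 10830 CPM in knockout total RNA, and 1617 CPM in the IgG IP, against 5266 and 11671 CPM in wild-type total RNA. Its total RNA levels varied more than 1.5-fold within both groups, and still no IP reached them. The log2 ratios were −1.71 ± 0.42 in the knockout and −2.39 ± 0.57 with IgG (SE; adjusted p = 0.0211 and 0.0246). Rps20, a protein of the small ribosomal subunit (4:3831584-3835655), had 369 and 275 CPM in the knockout IPs, against 1570 and 1336 CPM in knockout total RNA, and 460 CPM in the IgG IP, against 1191 and 1519 CPM in wild-type total RNA. It was lower by −2.17 ± 0.20 and −1.56 ± 0.25 (log2, SE).

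The other 8 genes lowest in both also include proteins of the ribosome and a subunit of the ATP synthase. Rpl41 had a knockout ratio of −1.78 and an IgG ratio of −1.51, Rpl32 of −1.75 and −1.29, and Rps21 of −1.43 and −1.52. Atp5e, the smallest central-stalk subunit of the ATP synthase, had −1.67 and −1.48. The histone H2afj had −1.57 and −1.43, the apolipoprotein Apoc1 had −1.26 and −1.37, Cand2, a regulator of cullin ubiquitin ligases, had −1.65 and −1.23, and Tmem160 had −1.20 and −1.50. Among these extremes are neighbours whose annotated spans overlap. Ldhd and Znrf1, both high, overlap by 110 bases, and Rpl32 and Cand2, both low, overlap by 42 bases, while Peo1 overlaps Mrpl43 by 780 bases. The strand used in counting is not given in the sources used here, so reads in those overlaps cannot be assigned to one gene, and the values of such pairs are uncertain. The same holds for ribosomal protein genes and Fth1, which have many processed copies in the genome. Leaving out 1 of the 4 knockout libraries ended the knockout call of Fth1 and Peo1 in each case, and that of Aldh2, Trap1, Dgkd, Znrf1, Pttg1, Atp5e and Apoc1 in at least 1, with ratios of 0.66 to 1.17 for the high genes and −1.98 to −1.04 for the low ones. In the IgG ratio Pttg1 was not called without samples 15, 20, 23 or 24, at 0.87 to 0.92, and Peo1 without most single libraries, at 0.54 to 0.93. Fitted in its own table, the IgG ratio was no longer called for Ldhd (1.28), Trap1 (1.01), Mipep (0.93) and Immt (0.81). The same held for Pttg1 (0.73), Peo1 (0.73) and Isoc2a (0.69), and for Cand2 (−1.375) among the low genes.

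**Figure D2:**
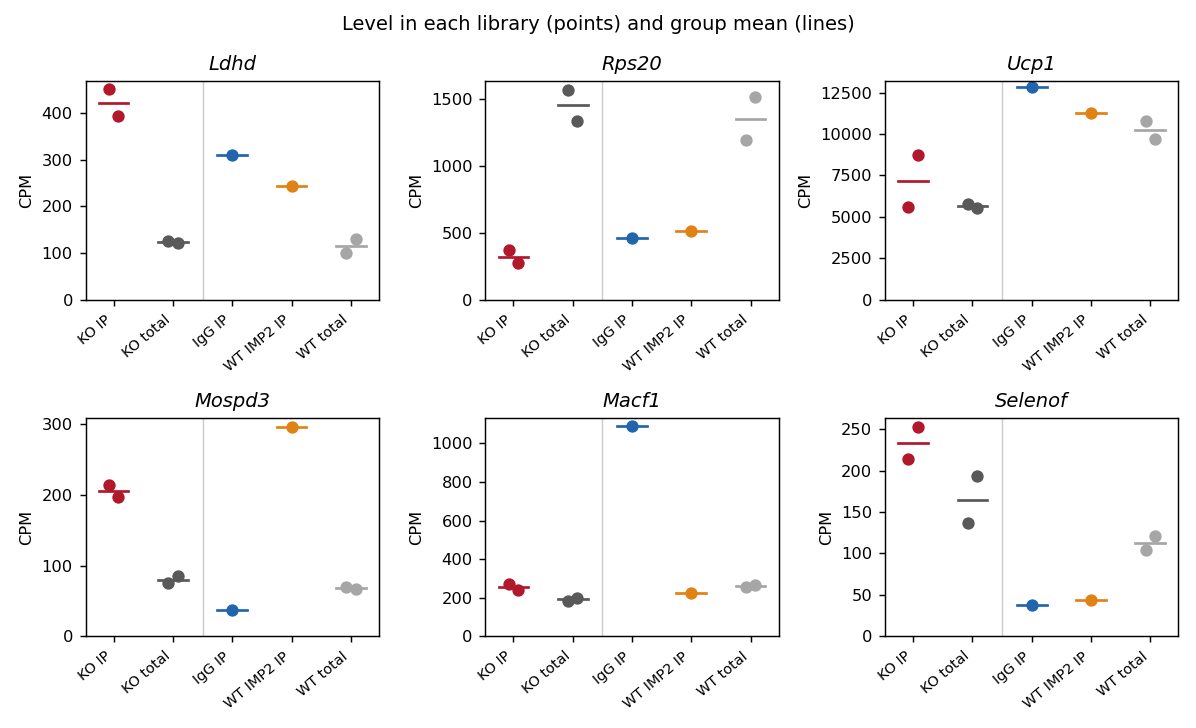
Level of 6 genes in each library (points, CPM) with the group mean (lines), for the knockout IPs (samples 23 and 24) and knockout total RNA (18 and 19) left of the grey line, and the IgG IP (26), wild-type IMP2 IP (25) and wild-type total RNA (15 and 20) of the other table right of it. Ldhd is above and Rps20 below total RNA in every IP, Mospd3 is low in the IgG IP alone, Macf1 is high in the IgG IP alone at 1087 CPM, and Selenof is low in both IPs of the second table.

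Ribosomal protein mRNAs were the most depleted list in the knockout background. Ribosomal proteins of the cytosol are made from short, very abundant mRNAs. Of 20 listed, 18 fell in the knockout ratio (median −1.24) and 11 in the IgG ratio (median −0.76), and all 11 were called in both; none was called higher in either. The same counts over all genes were 9.79% lower in both ratios, with medians of 0.05 and −0.02. The wild-type IMP2 IP of the second table, over its total RNA, had a median of −0.83 in this list. All 20 members were below 0 there, and 3 were called lower. The members nearest to 0 in the knockout ratio were Rps3 at −0.49 (not called) and Rpl8 at −0.63. The IgG ratio was largest for Rps3 at 0.15 and Rpl14 at 0.0074, neither called. The difference of the ratios (knockout minus IgG) had a median of −0.44 over the list, and 17 of 20 members were below 0, but no member passed the test of the difference in edgeR. DESeq2 called Rpl14, Rpl13a and Rps15 lower in the difference (adjusted p = 0.00127, 0.0221 and 0.0496). That median was −0.64 to −0.35 when single libraries were left out. The knockout ratio kept 13 calls in the list at the least, without IP 24, and the IgG ratio 7, without knockout IP 23. The 44 mitochondrial ribosomal proteins, which translate the mitochondrial genome, were not depleted as a list, with 2 called higher and 6 lower in either ratio and medians of −0.02 and −0.14. Mrps24 was at −1.03 and −1.05, called in the knockout alone, and Mrpl4 at 0.79 and 0.92, called in both.

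Nuclear-encoded subunits of oxidative phosphorylation, the chain of complexes that turns electron transfer into a proton gradient and ATP, were mostly below total RNA in both backgrounds. Of 65 subunits, 49 had a knockout ratio and 55 an IgG ratio below 0, with medians of −0.32 and −0.44, and 14 were called lower and 1 higher in each, and 9 were lower in both. Over all genes 9.79% were called lower in either ratio. Ndufa3, an accessory subunit of complex I, had 1913 and 1475 CPM in the knockout IPs, against 4289 and 2918 CPM in knockout total RNA, and 2416 CPM in the IgG IP, against 7734 and 5046 CPM in wild-type total RNA. Its ratios were −1.09 ± 0.33 and −1.40 ± 0.42 (log2, SE). The one subunit higher in both was Ndufs7, the iron-sulfur subunit at the quinone end of complex I, at 0.87 and 0.64. The median difference of the 65 was 0.12, with 44 above 0, and it turned to −0.25 without wild-type total RNA 20. Without knockout IP 24 the knockout ratio had 0 lower calls among the 65, and the IgG ratio had 6 at the least, without knockout IP 23. In the wild-type IMP2 IP of the second table the 65 had a median ratio of −0.32, with 47 below 0 and 0 called lower. None of the genes encoded by mitochondrial DNA is in both tables.

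Genes of the citric acid cycle and of branched-chain amino acid breakdown were mostly above total RNA in both backgrounds. In the wild-type IMP2 IP of the second table the medians of these lists were 0.21 and 0.53. Over all genes, 9.7% were called higher in the knockout ratio and 7.68% in the IgG ratio. Of 13 genes of the citric acid cycle and pyruvate use, 12 were above 0 in the knockout ratio and 13 in the IgG ratio, with medians of 0.55 and 0.40; 6 rose in the knockout ratio and none fell, while 1 rose in the IgG ratio, a share close to that over all genes. Idh3b, a subunit of isocitrate dehydrogenase, was the one called in both, with 1896 and 1693 CPM in the knockout IPs, against 987 and 929 CPM in knockout total RNA, and 1071 CPM in the IgG IP, against 634 and 733 CPM in wild-type total RNA. Of 29 genes of protein import, chaperones and proteases, 8 rose in the knockout ratio and 6 in the IgG ratio, 4 of them in both, among them Mipep, Trap1 and Immt, and none fell in this test. This list spans the outer membrane to the matrix, and 9 of the 29 knockout ratios and 10 of the 29 IgG ratios were below 0. The lowest knockout ratio was that of Chchd6, a cristae protein, at −0.67, and the lowest IgG ratios were those of Tomm6 and Timm13, of the import machinery, at −0.85 and −0.75, none of them called. Without total RNA 18 the knockout ratio had 0 calls in the citric acid cycle list and 2 in the import list. Of 10 genes that break down branched-chain amino acids, 5 rose in the knockout ratio (median 0.55) and 2 in the IgG ratio (median 0.44). Both of these, Ivd at 1.11 and 0.72 and Mccc1, with a knockout ratio of 0.66, were called in both. Ivd removes hydrogen from the leucine-derived acyl chain, and Mccc1 is part of the carboxylase of the same pathway.

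Among genes of lipid use, Acadvl and Plin5 were called higher in both backgrounds. Of 16 genes of fatty acid oxidation, 4 rose in the knockout ratio (median 0.30), while 1 rose and 2 fell in the IgG ratio (median 0.01), near the shares over all genes of 7.68% higher and 9.79% lower. In the knockout ratio 9.7% of all genes were higher. Acadvl, which starts the oxidation of very long chains, was called higher in both, at 0.79 and 0.73. Hadhb, a subunit of the trifunctional protein, was at 0.65 (called) and −0.17 (0.01 without wild-type total RNA 15). Echs1, an enoyl-CoA hydratase, was at 0.08 and −0.81 and Hsd17b4, of peroxisomal oxidation, at 0.31 and −0.77, each called lower in the IgG ratio alone. Their differences were called higher in DESeq2 (adjusted p = 0.0417 and 0.0496) and not in edgeR. Of 16 genes of lipid synthesis and storage, 4 rose in the knockout ratio (median 0.22) and 3 in the IgG ratio (median 0.45), 1 in both. Plin5, a coat protein of lipid droplets near mitochondria, was the shared one, at 0.57 and 1.07. Mlxipl, of the same list, had 1441 CPM in the IgG IP, against a mean of 624 CPM in its total RNA. In the knockout it had means of 488 CPM in the IPs and 441 CPM in total RNA. Its difference was called lower in DESeq2 (−1.115, adjusted p = 0.0236) and not in edgeR. The fatty acid carrier Fabp4 had 17227 and 19208 CPM in the knockout IPs, against 6872 and 9904 CPM in knockout total RNA, and 15762 CPM in the IgG IP, against 8851 and 8952 CPM in wild-type total RNA. All of its IPs lay above all total RNA, and its ratios were 1.12 (adjusted p = 0.0101) and 0.82 (adjusted p = 0.059), the second short of the threshold, with a range of 0.0133 to 0.469 over the alternatives.

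Thermogenic genes had lower calls and no higher ones in the main test. Of this list, Cox8b and Cox7a1 are also among the oxidative phosphorylation subunits above. Of 9 listed, 2 fell in the knockout ratio and 2 in the IgG ratio, 1 of them (Cox8b, at −0.77 and −1.06) in both, and none rose, against 9.79% of all genes lower in either ratio. Ucp1 had 5591 and 8749 CPM in the knockout IPs, against 5775 and 5566 CPM in knockout total RNA, and 12835 CPM in the IgG IP, against 10813 and 9710 CPM in wild-type total RNA. One knockout IP lay between the total RNA libraries and the other above them, and the IgG IP lay above its total RNA. The ratios were 0.34 ± 0.27 and 0.32 ± 0.32 (SE; adjusted p = 0.41 and 0.52), and their difference was 0.02 ± 0.42. Without the knockout IP of sample 24 the knockout ratio of Ucp1 was −0.02. Dio2, the deiodinase that activates thyroid hormone in the cold, varied widely between knockout libraries, with 90.6 and 698 CPM in the IPs and 56.3 and 506 CPM in total RNA, and its knockout ratio of 0.47 was −1.65 without IP 24 and −0.36 without total RNA 18. With samples 23 and 18, and 24 and 19, paired by their counts, a choice made after seeing the data, it was 0.56 and called (adjusted p = 0.0426), while the knockout ratio of Cox8b was no longer called (adjusted p = 0.0511).

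Among markers of cells that are not fat, those of red blood cells were depleted. All 3 red blood cell genes fell in both ratios, with Hbb-bs at −0.95 and −1.61 and Hba-a1 and Hba-a2, whose counts are identical in every library, at −1.11 and −1.51. Over all genes 9.79% were called lower in either ratio. Without knockout IP 24 or total RNA 18 none of the 3 was called in the knockout ratio, at −0.73 to −0.79. With the 7 libraries of the ratios alone, Hba-a1 and Hba-a2 were called in neither ratio, at −1.15 and −1.48. Their IgG ratio was −1.05 without wild-type total RNA 15. In the wild-type IMP2 IP of the second table the median of the 3 red blood cell genes was −1.09, with 0 called. The endothelial marker Egfl7 was at −0.42 in the knockout ratio and 0.53 in the IgG ratio, neither called in edgeR. The nerve marker S100b was at −0.07 and −0.84, called lower in the IgG ratio alone (edgeR adjusted p = 0.0378). The difference of Egfl7 was called lower in DESeq2 (adjusted p = 0.0402). Of the 9 muscle markers, no member was called in either ratio, with medians of −0.57 and −1.09. Acta1, skeletal muscle actin, was at −1.89 and −1.67. With libraries paired by their counts as above, 3 muscle markers were called lower in the knockout ratio and 4 in the IgG ratio, among them Acta1 at −1.81 and −1.67 (adjusted p = 0.0171 and 0.0404). The IgG table fitted alone also gave 4. The muscle median moved between −1.73 without sample 24 and 0.84 without sample 19 in the knockout ratio, and the muscle sums differ severalfold between total RNA libraries. Whether muscle in the samples bears on other genes was not tested.

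Named members of the mitochondrial, lipid and thermogenic lists lost a call in the knockout or IgG ratio when 1 library was left out in many cases, among them Ndufa3, Ndufs7, Idh3b, Mccc1, Acadvl, Hadhb, Plin5, Fabp4, Cox8b, Mrpl4, Mrps24 and Hsd17b4. None of these called ratios changed sign, and the ratios without the library were 0.49 to 1.04 for the high genes and −1.40 to −0.52 for the low ones.

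**Figure D3:**
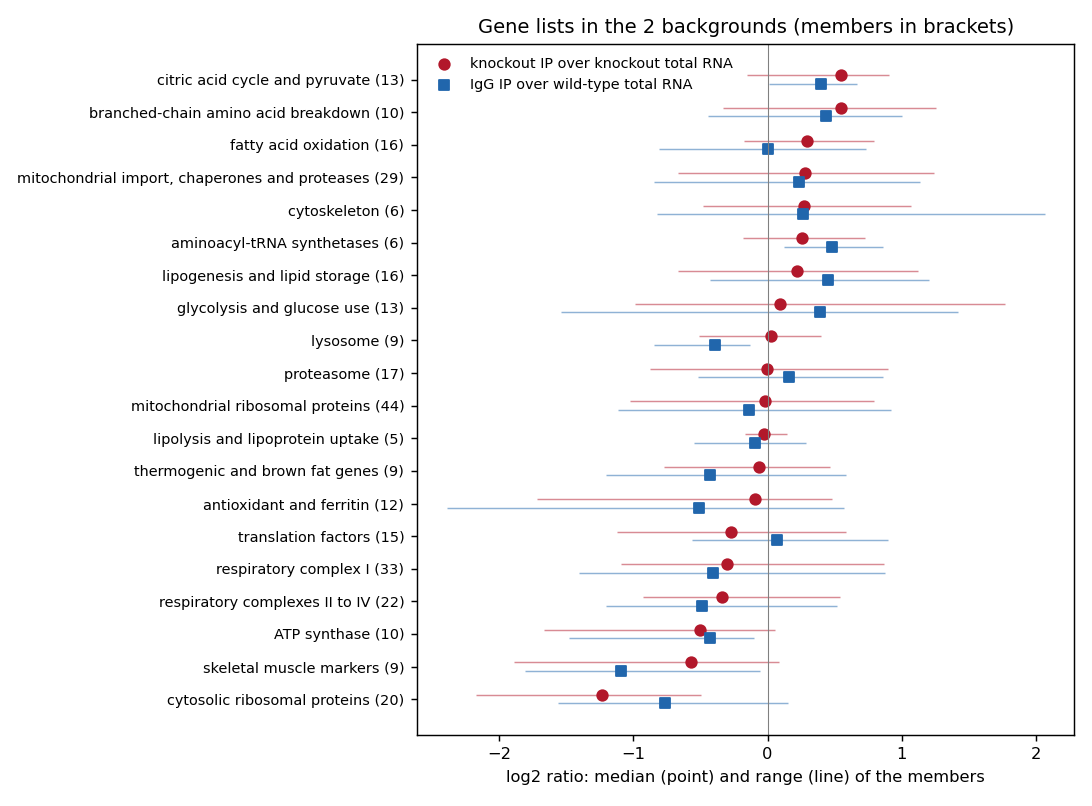
Median (point) and range (line) of the log2 ratio over the members of each list with at least 5 members in both tables, with the knockout ratio (circles) above the IgG ratio (squares) in each row and the number of members in brackets. The order of the lists is by the knockout median, from 0.55 for the citric acid cycle to −1.24 for cytosolic ribosomal proteins, and both medians have the same sign in most lists.

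Both ratios moved with the level of the mRNA. Levels were taken from wild-type total RNA of samples 16 and 17, which enter neither ratio but are in the first table. Over the 1185 genes, the smallest count in wild-type IP 22 was 101, of 775435 counts in all. It was 110 in knockout total RNA 18, of 2476532 counts, but 39 in knockout IP 23, of 2366578 counts. A gene low in total RNA may thus have been listed only if its IP counts were high. The trend with level therefore cannot be told apart from the listing. In the 237 genes with the lowest level (64.9 to 168 CPM) the median was 0.33 in both ratios, and 52 were called higher and 0 lower in the knockout ratio, against 43 and 3 in the IgG ratio. In the 237 with the highest level (788 to 41228 CPM) the medians were −0.16 in the knockout ratio and −0.32 in the IgG ratio, and 16 were called higher and 54 lower in the knockout ratio, against 9 and 48 in the IgG ratio. Spearman's rho with the level was −0.390 and −0.389 over the 1185 genes. Gene span, the annotated length with introns, was known for 1181 genes and went the other way, with a rho of 0.200 and 0.266. The 237 shortest (0.5 to 4.26 kb) had medians of −0.11 in the knockout ratio and −0.35 in the IgG ratio, and the 236 longest (29.2 to 541 kb) had 0.14 and 0.18. The length of the mRNA itself was not used here. A fit of the IgG table alone used the default count filter of edgeR, which kept 7747 of the 8159 genes listed there alone. In it the 1185 genes had a median IgG ratio of −0.17, against 0.02 for those 7747 genes. The median level of the 1185 genes in total RNA was 171 CPM, against 16.3 CPM.

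**Figure D4:**
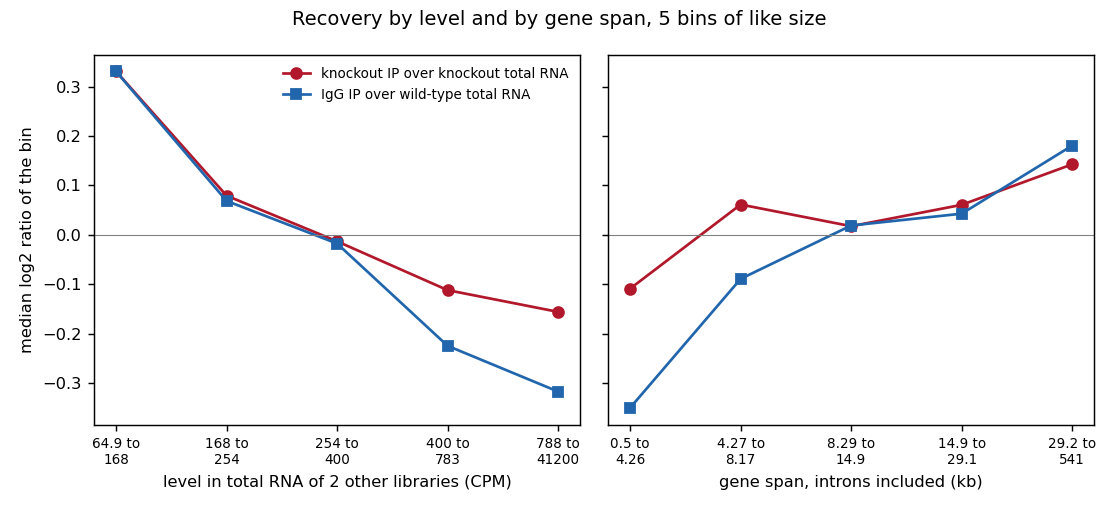
Median log2 ratio in 5 bins of genes, by level in total RNA samples 16 and 17 (left, CPM) and by gene span (right, kb), with the knockout ratio as circles and the IgG ratio as squares. Both medians fall with level, from 0.33 in the lowest bin to −0.16 and −0.32 in the highest, and are lowest in the bin of shortest genes. The part that the listing of genes has in this was not tested and cannot be told apart from the level.

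The test of the difference called no gene. At an adjusted p under 0.05 in edgeR, 0% of the 1185 genes had a knockout ratio above their IgG ratio and 0% below it. At an unadjusted p under 0.05 there were 121 (70 above and 51 below), DESeq2 called 29 (10 and 19) and limma-voom called 0. The smallest adjusted p was 0.060. Differences ranged over −1.65 to 2.23, their SD over genes was 0.43 and their median SE was 0.30, and 30 genes lay beyond 1 in size (17 above, 13 below). For scale, the same labelled ratio, wild-type IMP2 IP over wild-type total RNA, could be set between the first and the second table. It had 0 calls in edgeR, DESeq2 and limma-voom, 38 genes at an unadjusted p under 0.05 in edgeR, an SD of 0.32 and 8 genes beyond 1. Both differences use total RNA samples 15 and 20, and their values are therefore given side by side only.

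The largest difference was in Mospd3, a membrane protein with an MSP domain (5:137596645-137601079). It had 214 and 197 CPM in the knockout IPs, against 75.2 and 85.6 CPM in knockout total RNA, but 36.7 CPM in the IgG IP, against 69.8 and 66.4 CPM in wild-type total RNA. The knockout IPs thus lay above all total RNA and the IgG IP below it. Its knockout ratio was 1.35 ± 0.18 (adjusted p = 0.00161), its IgG ratio −0.88 ± 0.27 (adjusted p = 0.0502) and the difference 2.23 ± 0.33 (SE; adjusted p = 0.0600). The wild-type IMP2 IP of the IgG table had 296 CPM, a ratio of 2.12, and those of the first table had 179 and 237 CPM. All 5 IPs made with the IMP2 antibody, from wild-type or knockout tissue, were therefore above all total RNA libraries of their table, and the IgG IP was not. The difference passed the threshold under relative log expression and upper-quartile scaling (adjusted p = 0.049 and 0.0389), in DESeq2, without the wild-type IP of sample 22 and with libraries of the first table paired by likeness, a choice made after seeing the data.

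Macf1 was the gene with the largest difference in the other direction. It encodes a giant linker of microtubules and actin (4:123349633-123687802). The knockout IPs had 271 and 241 CPM, against 183 and 200 CPM in knockout total RNA, while the IgG IP had 1087 CPM, against 255 and 264 CPM in wild-type total RNA. Its span overlaps that of D830031N03Rik by 8311 bases. The IgG IP stood above the other 11 libraries, and the wild-type IMP2 IP of the same table had 227 CPM. The knockout ratio was 0.41 ± 0.17, the IgG ratio 2.06 ± 0.20 and the difference −1.65 ± 0.27 (SE; adjusted p = 0.0620). This difference passed under relative log expression scaling (adjusted p = 0.049), in DESeq2 and without the wild-type IP of sample 21 or 22. Ahnak, another giant protein of the cell cortex, had 920 and 906 CPM in the knockout IPs, against 975 and 1034 CPM in knockout total RNA, and 1566 CPM in the IgG IP, against 842 and 648 CPM in wild-type total RNA. The difference was −1.21 ± 0.29 (adjusted p = 0.167).

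Selenof, a selenoprotein of the endoplasmic reticulum (3:144570427-144597677), had 214 and 253 CPM in the knockout IPs, against 136 and 194 CPM in knockout total RNA, and 37.7 CPM in the IgG IP, against 104.1 and 121 CPM in wild-type total RNA. The wild-type IMP2 IP of the IgG table was as low, at 43.6 CPM. Its difference of the ratios was 2.08 ± 0.37 (SE; adjusted p = 0.0832), and the wild-type IMP2 ratio differed between the tables by 1.62 ± 0.41 in the same direction. Banf1, which binds DNA at the nuclear envelope, and Higd2a, an assembly factor of respiratory complexes, had differences of 1.18 ± 0.25 and 1.17 ± 0.26, and the wild-type ratio differed between tables by 0.60 and 0.71. For Mfge8, a secreted bridge between dying cells and phagocytes, the difference was 1.16 ± 0.27 and the wild-type ratio differed by −0.15.

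Below 0 came Xrcc6, the Ku70 protein of DNA end joining, at −1.30 ± 0.29, with 975 CPM in the IgG IP, against 418 and 553 CPM in its total RNA. Its span overlaps another annotated gene, Desi1, by 23736 bases. Parp6, a mono-ADP-ribosyltransferase, was at −1.05 ± 0.22. Rpl14, a protein of the large ribosomal subunit, was at −1.03 ± 0.22: it had 437 and 410 CPM in the knockout IPs, against 908 and 811 CPM in knockout total RNA, and 635 CPM in the IgG IP, against 603 and 659 CPM in wild-type total RNA. The IgG IP lay between its total RNA libraries, and both knockout IPs lay below theirs. The edgeR adjusted p was 0.15 to 0.17 for these genes and for Banf1, Higd2a and Mfge8. DESeq2 called all of them, with adjusted p of 0.00127 for Xrcc6 and Rpl14, 0.00669 for Parp6 and Mfge8, 0.00686 for Banf1 and 0.0181 for Higd2a, and also Selenof (3.06e-05) and Ahnak (0.00238).

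**Figure D5:**
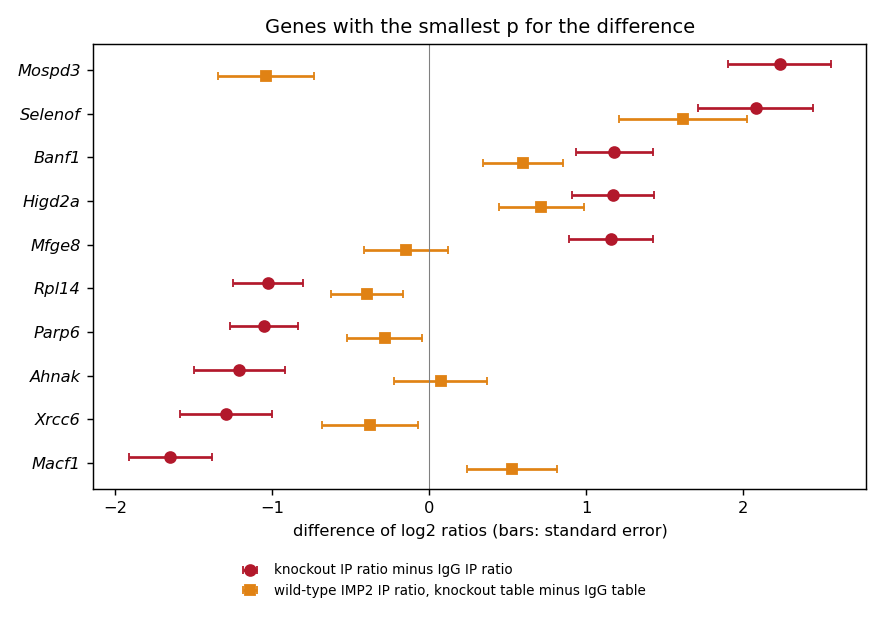
Difference of the log2 ratios (knockout minus IgG, circles) for the 5 genes with the smallest p in either direction, above the difference of the wild-type IMP2 ratio between the first and the second table (squares), with standard errors as bars. Both differences are above 0 for Selenof, Banf1 and Higd2a, and below 0 for Parp6, Rpl14 and Xrcc6. They have opposite signs for Mospd3, Mfge8, Macf1 and Ahnak. Both use the same wild-type total RNA samples 15 and 20.

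Some lists leaned one way in the difference, although edgeR called no member. Translation factors had a median of −0.31, with 11 of 15 below 0, a knockout median of −0.27 and an IgG median of 0.07, whose sign depends on the scaling (−0.08 to 0.21). Eef1d, a subunit of the exchange factor for elongation, had 416 and 350 CPM in the knockout IPs, against 951 and 719 CPM in knockout total RNA, and 1195 CPM in the IgG IP, against 1143 and 1208 CPM in wild-type total RNA, a difference of −1.15 ± 0.31 (edgeR adjusted p = 0.27; 0.00669 in DESeq2, which called it alone of the 3 lists here). All 6 aminoacyl-tRNA synthetases were below 0 in the difference, with a median of −0.27. Of 9 lysosomal genes 8 were above 0, with a median of 0.39, which was 0.07 without wild-type total RNA 15. Over all 1185 genes the median difference was 0.05. The wild-type IMP2 ratio between the tables had medians of 0.08, 0.17 and 0.21 for the same 3 lists, against −0.35 for cytosolic ribosomal proteins and 0.03 for all genes.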

How the data were processed

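The authors deposited raw counts per RefSeq transcript. The submitters' processing notes name TopHat2 2.0.8, Cufflinks 2.1.1 and mm10. No source used here gives the counting tool, its strand setting or the rule for listing transcripts. The tables list 1579 and 12840 transcripts. Names for those without a symbol (117 and 835), and for symbols turned into dates, came from accessions in RefSeq (GRCm38.p6). This left 3 and 22 unnamed, which held 8.65 to 29.2% and 7.39 to 15.8% of counts and were kept out. Each gene is represented by its most counted transcript. Of the 1185 genes, 1175 match by symbol as listed and 10 by accession, and 4 have counts identical to another gene.

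All 12 brown fat libraries were fitted in 7 groups, those of each table apart, with edgeR 4.0.16 in R 4.3.3 (TMM scaling, no filter, quasi-likelihood test, prior count 0.125, Benjamini-Hochberg over the 1185 genes, threshold 0.05). The fit had 5 residual degrees of freedom and a biological coefficient of variation of 16.9%. Standard errors were calculated back from each log2 ratio and its p-value, and are no separate measure of precision. The IgG IP is 1 library, and its spread was taken from the replicated groups. The labels do not say that libraries of a group are separate animals, and p-values cover only the spread among the libraries given. The method was tested on simulated data. Genes named are Ucp1, the 10 highest and 10 lowest called in both, the 5 smallest p-values of the difference in each direction, leaving out predicted genes, and the extremes of lists. The members, the 28 gene lists and these rules were chosen with earlier results of these data known. Alternatives were other scalings, a filter of 20 counts, DESeq2 1.42.0, limma-voom (limma 3.58.1), fewer libraries, separate tables, summed transcripts, a prior count of 2 and leaving out each library.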

Additional observations from a re-analysis of the deposited data

Results flagged for a closer look

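In 6 of the genes named for their difference, every pairing of a knockout IP with a knockout total RNA library went one way and every pairing of the IgG IP with a wild-type total RNA library went the other. The differences of the log2 ratios, knockout minus IgG, were 2.23 for Mospd3, 2.08 for Selenof, 1.18 for Banf1 and 1.17 for Higd2a, and −1.05 for Parp6 and −1.21 for Ahnak. The difference was tested in edgeR, and the adjusted p was 0.060 to 0.167. The IgG side rests on 1 IP.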

How the results depend on the processing

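The IgG IP is 1 library and could not be left out. A filter of 20 counts removed no gene and a prior count of 2 moved no call. The named genes gave 118 ratios and differences and 2584 recomputed values, of which 2312 kept sign and side of the threshold, 216 lost a call (146 on leaving out 1 library), 37 gained one and 19 changed sign. No pairing could be taken from the labels, which match no IP to a total RNA library, and the groups share no replicate number. A pairing read from the counts of the first table (23 with 18, 24 with 19, 21 with 16, 22 with 17), chosen after seeing the data, gave 149 higher and 141 lower calls in the knockout ratio, 116 and 140 in the IgG ratio and 1 higher call in the difference. Of the named genes, Dio2 gained a knockout call, Mospd3 and Fabp4 an IgG call and Acta1 both, while Cox8b lost its knockout call and Peo1 and Acadvl their IgG calls. If these pairs are matched, leaving out 1 library of the first table breaks a pair. Such fits then also carry the difference between the pairs.

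Calls in the knockout ratio were 198 higher under upper-quartile scaling, 47 higher with the 7 libraries of the ratios alone and 72 higher with summed transcripts, and 183 lower in DESeq2 and 187 lower in a fit of its own table. Calls in the IgG ratio were 161 higher and 77 lower under upper-quartile scaling, 160 higher with library size, 164 higher and 184 lower in DESeq2, 41 and 27 with the 7 libraries alone, and 4 and 32 in its own table, where fewer libraries give the spread. The difference had 1 higher and 1 lower call under relative log expression scaling, 1 higher under upper-quartile scaling, and 10 higher and 19 lower in DESeq2. The cause of these shifts was not tested.

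Leaving out 1 library, the knockout ratio had 9 (without knockout total RNA 18) to 132 higher calls and 29 (without knockout IP 24) to 193 lower calls (without wild-type total RNA 20; 192 without 15). Knockout calls were 25 higher and 49 lower without IP 23, 22 higher without IP 24, 30 lower without total RNA 18, 39 higher and 77 lower without 19, and 64 higher without wild-type IP 21. The IgG ratio had 54 (without knockout IP 23) to 128 higher calls and 74 (without wild-type total RNA 16 or 17) to 148 lower calls. It had 55 higher without knockout IP 24, 58 and 59 higher without wild-type total RNA 16 and 17, and 75 and 77 lower without samples 23 and 21. The difference had 0 to 1 calls in either direction, and the correlation across genes was 0.568 without wild-type total RNA 20 to 0.730 without 15.

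The sign changes follow. For Ucp1 the difference of the ratios was −0.036 under relative log expression scaling and in DESeq2, −0.019 under upper-quartile scaling, −0.038 with library size, −0.0090 in limma-voom, −0.054 with 7 libraries, −0.067 with summed transcripts, −0.020 with paired libraries, and −0.34 to 0.30 leaving out 1 library, all within its SE. Its knockout ratio was −0.020 to 0.63 leaving out 1 library. Fitted in its own table, the IgG ratio was −0.14 for Rpl14 and −0.12 for Eef1d. Leaving out 1 library gave a knockout ratio of −1.65 to 2.80 for Dio2 and IgG ratios of −0.14 to 0.71 for Rps3 and −0.26 to 0.0075 for Hadhb.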
